A study of Saccharomyces cerevisiae with 20 samples.

Results

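The *FLO11* locus of *Saccharomyces cerevisiae* lies on chromosome IX and holds the flocculin gene *FLO11* (YIR019C), the 2 noncoding RNAs (ncRNAs) *ICR1* and *PWR1* that are annotated upstream of it, the ORF *YAP5* (YIR018W) on its other side, and the ORF YIR020C. These 5 of the 12131 features in the count table were taken by name, and they were picked as a set because differences between strains at *FLO11* and its ncRNAs were already known from these same counts. Their differences between strains are therefore given as a description, with values and errors and without a test. In the libraries, 4 of the 5 had a median of at least 1 CPM (the usual scaling of a feature's count to the total of its library, here over all features), and YIR020C had no count.

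The counts came from colonies of F45, a *MATa* strain with *HO* deleted that forms structured, fluffy colonies. Each of the 5 strains carried F45's genome plus a low-copy centromeric MoBY plasmid with *SFL1*, *HEK2*, *SAN1*, *ROF1* or *TOS8* under its own promoter, kept by G418. Each strain gave 4 samples, each a pool of several whole colonies taken after 4 days on YPD with 2% glucose at 30°, from which a stranded mRNA library was made. The plasmids came from a screen for genes that make F45 colonies smoother. The comparison asks how expression differs between strains whose colonies were made smoother, to different degrees, by different genes. The paper grades this loss of structure as very strong with *SFL1* and *HEK2*, intermediate with *SAN1* and *ROF1*, and weak with *TOS8*. No F45 library with an empty vector was analysed here, so a strain is set against the mean of the other 4 strains or against another strain, and a value that is high or low here is so only among overexpression strains.

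*FLO11* encodes a cell wall glycoprotein that lets cells stick to each other and to surfaces, and it is required for structured colonies and invasive growth. Its upstream region is unusually long, and in another strain background a pair of ncRNAs has been described there: *ICR1* is transcribed through the *FLO11* promoter toward the gene and is associated with its silent state, and *PWR1* is transcribed from the opposite strand, away from *FLO11*, and is associated with the active state. In that scheme the repressor Sfl1 favours *ICR1* and the activator Flo8 favours *PWR1*. Yap5 is an iron-responsive transcription factor, and YIR020C is an ORF with no known product.

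In the R64 assembly, *FLO11* spans chrIX:389572-393675 on the minus strand and is 4104 bases long. *ICR1* starts 3407 bases upstream of the *FLO11* start codon, runs on the same strand over 3199 bases (chrIX:393884-397082) and ends 208 bases before the *FLO11* ORF. *PWR1* covers chrIX:395999-396939 on the plus strand, 941 bases that lie wholly within *ICR1*, and its start is 2324 bases from the *FLO11* start codon. YIR020C (chrIX:394255-394557, minus strand, 303 bases) also lies wholly within *ICR1*, but on the same strand, so that it is no flank of the locus by position. *YAP5* (chrIX:384609-385346, plus strand, 738 bases) ends 4225 bases before the 3′ end of *FLO11*. The gap between *FLO11* and its upstream neighbour *MRS1* was 3618 bases. The sequences below show where the opposing ncRNAs begin, since the counts of these transcripts behaved differently. They were read from the R64 genome, whose coordinates for all 5 features were those of the count table. The first has 250 bases before *PWR1* in lower case and the first 50 bases of *PWR1* in capitals (chrIX:395749-396048, plus strand). The second has 30 bases before *ICR1* in lower case and its first 70 bases in capitals (chrIX:397013-397112, minus strand).
PWR1 start: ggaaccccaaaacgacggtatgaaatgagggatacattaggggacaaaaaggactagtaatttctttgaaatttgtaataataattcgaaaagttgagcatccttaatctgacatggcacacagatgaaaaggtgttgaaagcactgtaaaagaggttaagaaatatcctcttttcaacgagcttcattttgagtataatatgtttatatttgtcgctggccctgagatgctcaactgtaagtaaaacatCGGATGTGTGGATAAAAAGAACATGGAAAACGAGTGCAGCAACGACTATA
ICR1 start: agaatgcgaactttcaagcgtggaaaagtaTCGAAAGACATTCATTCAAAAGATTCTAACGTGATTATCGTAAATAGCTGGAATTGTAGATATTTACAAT

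Library totals ran between 6027147 and 35027485 counts, with a median of 16474114. Each plasmid gene was higher in its own strain than in the other 4, with log2 fold changes of 2.26 for *SFL1*, 1.57 for *HEK2*, 1.27 for *SAN1*, 1.43 for *ROF1* and 2.15 for *TOS8*. The ORFs of chromosome IX as a whole (206 of them) shifted by at most 0.04 on the log2 scale in any strain. *HO* had at most 9 counts in a library. The a-specific genes *MFA1*, *MFA2*, *STE2* and *BAR1* were detected in each library, and their summed level moved with the strain, at 568.5 to 736.6 CPM in the *ROF1* strain and 567.2 to 682.6 CPM in the *SAN1* strain, but 400.7 to 511.5 CPM in the *HEK2* strain, 367 to 419 CPM in the *SFL1* strain and 290.1 to 380.3 CPM in the *TOS8* strain. The summed alpha-specific genes, most of it *STE3*, were at 29.7 to 36.6 CPM in the *ROF1* strain, 31.3 to 38.2 CPM in the *SAN1* strain and 25.4 to 30.1 CPM in the *TOS8* strain, all above the *SFL1* libraries, at 21.1 to 24.8 CPM, and the *HEK2* libraries, at 20.5 to 21.2 CPM. The alpha-specific sum was thus low in the strains where *FLO11* and *PWR1* were low. The a-specific sum did not follow this, since its range was lowest in the *TOS8* strain. What part these markers have in the values of the locus was not tested. Of all features called between a strain and the rest, the share that was higher depended on the scaling: it was 73.7% for *SFL1*, 41% for *HEK2* and 53.2% for *SAN1*, against 46.7%, 55.2% and 63.4% with TMM scaling (trimmed mean of M-values, which sets libraries equal by their typical feature).

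*FLO11* was the member with the widest range, lowest in the *SFL1* strain and highest in the *ROF1* strain. Its level was 766.9, 872.6, 937.1 and 767.8 CPM in the *SFL1* libraries 1 to 4, and 3426, 4688, 4752 and 3299 CPM in those of the *HEK2* strain. It was 6728, 9650, 7131 and 7398 CPM in the *SAN1* libraries and 11976, 12164, 12927 and 10198 CPM in the *ROF1* libraries. All 4 *SFL1* libraries lay below every other library, and all 4 *ROF1* libraries lay above every other library. The *TOS8* libraries had 5523, 6212, 5961 and 7342 CPM and overlapped with those of the *SAN1* strain. The strain means were 836.1 ± 83.7 CPM (*SFL1*), 4041 ± 785.8 CPM (*HEK2*), 6260 ± 775.8 CPM (*TOS8*), 7727 ± 1312 CPM (*SAN1*) and 11816 ± 1155 CPM (*ROF1*; SD, n = 4 each), a 14.1-fold range. In this order each strain was apart from its neighbour, with no shared library values, except *TOS8* and *SAN1*. In these whole colonies, fewer cells with *FLO11* mRNA and less of it per cell cannot be told apart.

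At these levels *FLO11* was among the most abundant transcripts of the colonies. It held rank 3 or 4 of all features in the *ROF1* libraries, rank 4 to 6 in the *SAN1* libraries, rank 4 to 13 in the *TOS8* libraries and rank 21 to 31 in the *HEK2* libraries, but rank 169 to 231 in the *SFL1* libraries. Its share of all counts was highest in *ROF1* library 3, at 1.29%, and lowest in *SFL1* library 1, at 0.0767%. Against the mean of the other 4 strains, the log2 fold change was -3.05 ± 0.13 for *SFL1*, -0.21 ± 0.10 for *HEK2*, 0.96 ± 0.10 for *SAN1*, 1.73 ± 0.09 for *ROF1* and 0.58 ± 0.10 for *TOS8* (SE, all 20 libraries in the fit). The fit averages logs, and the *SFL1* strain enters the mean against which the other strains are set, so the value for *HEK2* is close to 0 although its libraries lay below those of *SAN1*, *ROF1* and *TOS8*. Without *HEK2* library 4 it was -0.12. The coding part of *FLO11* holds repeats, and read pairs were counted without a filter on mapping quality, so the count can include pairs placed within repeats.

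*PWR1* followed the same order as *FLO11*, at far lower counts. It had 1.06, 1.06, 0.934 and 0.770 CPM in the *SFL1* libraries and 3.11, 4.07, 2.49 and 1.97 CPM in the *HEK2* libraries. It had 8.66, 9.11, 7.41 and 5.75 CPM in the *SAN1* libraries and 10.5, 8.22, 9.67 and 7.29 CPM in the *ROF1* libraries. The *TOS8* libraries had 5.63, 6.87, 5.93 and 6.72 CPM. Every *SFL1* library lay below every *HEK2* library, and every *HEK2* library lay below those of the other 3 strains. *ROF1* and *SAN1* overlapped, as did *SAN1* and *TOS8*, whereas *ROF1* lay above *TOS8*.

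The mean of *PWR1* was 0.955 ± 0.136 CPM in the *SFL1* strain, 2.91 ± 0.90 CPM in the *HEK2* strain, 6.29 ± 0.60 CPM in the *TOS8* strain, 7.73 ± 1.51 CPM in the *SAN1* strain and 8.92 ± 1.44 CPM in the *ROF1* strain (SD, n = 4 each), a 9.35-fold range. The log2 fold change against the mean of the other 4 strains was -2.67 ± 0.19 for *SFL1*, -0.61 ± 0.15 for *HEK2*, 1.15 ± 0.14 for *SAN1*, 1.37 ± 0.14 for *ROF1* and 0.76 ± 0.14 for *TOS8*. Without *HEK2* library 4, the lowest of its strain, the *HEK2* value was -0.40. These levels rest on 13 to 31 counts per *SFL1* library and on 15 counts in *HEK2* library 3, whose exact 95% Poisson interval is 8.40 to 24.7 counts. The *ROF1* libraries gave 53 to 205 counts. Intervals of this kind cover counting error only.

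*ICR1*, which runs through the *FLO11* promoter, varied far less between strains than *FLO11* or *PWR1*. It had 18.4, 18.1, 18.6 and 20.6 CPM in the *SFL1* libraries and 17.6, 17.7, 21.1 and 22.8 CPM in the *HEK2* libraries. It had 15.7, 14.7, 16.0 and 14.6 CPM in the *SAN1* libraries and 16.7, 14.2, 17.5 and 18.6 CPM in the *ROF1* libraries. The *TOS8* libraries had 16.7, 15.8, 13.3 and 14.3 CPM. Each *SFL1* and each *HEK2* library lay above each *SAN1* and *TOS8* library, and the *ROF1* libraries overlapped with those of all other strains.

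The *ICR1* means were 19.8 ± 2.59 CPM (*HEK2*), 18.9 ± 1.12 CPM (*SFL1*), 16.8 ± 1.85 CPM (*ROF1*), 15.3 ± 0.72 CPM (*SAN1*) and 15.0 ± 1.49 CPM (*TOS8*; SD, n = 4 each), a 1.32-fold range, and no neighbours in that order were apart. Its log2 fold change against the mean of the other 4 strains was 0.20 ± 0.07 for *SFL1*, 0.27 ± 0.07 for *HEK2*, -0.19 ± 0.08 for *SAN1*, -0.05 ± 0.08 for *ROF1* and -0.23 ± 0.08 for *TOS8*. These differences are small enough for the scaling and single libraries to move them. With TMM scaling the *SFL1* value was 0.13, and with ORFs and other features scaled in separate tables the *TOS8* value was -0.15. Without *HEK2* library 4 the *HEK2* value was 0.17, and without *ROF1* library 2 the *ROF1* value was 0.04. The libraries gave 110 to 800 counts for *ICR1*.

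**Figure D1:**
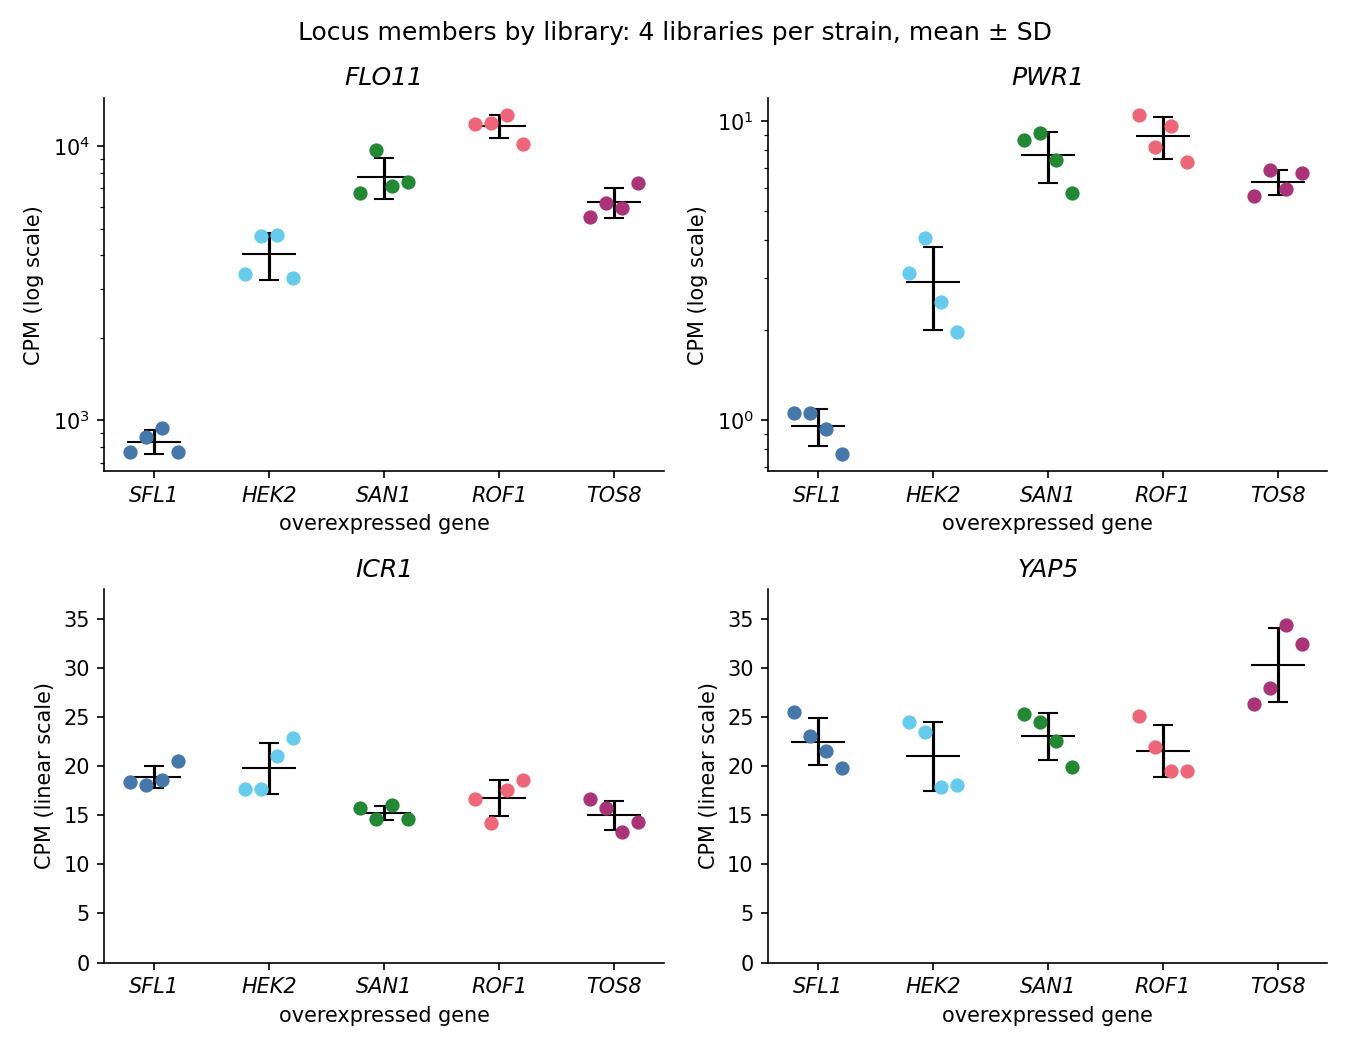
Levels of *FLO11*, *PWR1*, *ICR1* and *YAP5* in CPM in each of the 20 libraries (points, 4 per strain), with the strain mean and SD (black); the axes of *FLO11* and *PWR1* are logarithmic and those of *ICR1* and *YAP5* are linear. *FLO11* and *PWR1* span a 14.1-fold and a 9.35-fold range of strain means, *ICR1* and *YAP5* a 1.32-fold and a 1.44-fold range.

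The ratio of the opposing ncRNAs within a library set the *SFL1* and *HEK2* strains apart from *SAN1*, *ROF1* and *TOS8*, which overlapped with each other. Per kb of annotated length, the level of *PWR1* over that of *ICR1* was 0.196, 0.198, 0.171 and 0.127 in the *SFL1* libraries and 0.600, 0.784, 0.402 and 0.293 in the *HEK2* libraries. It was 1.87, 2.11, 1.58 and 1.34 in the *SAN1* libraries, and 2.14, 1.96, 1.88 and 1.34 in the *ROF1* libraries. In the *TOS8* libraries it was 1.15, 1.48, 1.51 and 1.60. Per kb, *PWR1* was thus below *ICR1* in all 8 libraries of the *SFL1* and *HEK2* strains, and above it in all 12 of the *SAN1*, *ROF1* and *TOS8* strains. The side of 1 rests on the annotated lengths, and the ends of these transcripts in F45 were not tested. By plain counts, *PWR1* was below *ICR1* in every library, with 0.0375 to 0.629 *PWR1* counts per *ICR1* count. The means per kb were 0.173 ± 0.033 (*SFL1*), 0.520 ± 0.217 (*HEK2*), 1.72 ± 0.34 (*SAN1*), 1.83 ± 0.35 (*ROF1*) and 1.44 ± 0.20 (*TOS8*) (SD, n = 4 each). When the 303 bases that *ICR1* shares with YIR020C were left out of its length, a choice made after seeing the data, the highest *HEK2* library was at 0.709 and the lowest *TOS8* library at 1.04, so each library kept its side of 1. Since *ICR1* spanned a 1.32-fold range, the 10.6-fold range of this ratio came mostly with *PWR1*.

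By contrast, *PWR1* stayed in a narrow proportion to *FLO11*. Per 1000 *FLO11* counts there were 1.15 ± 0.18 *PWR1* counts with *SFL1*, 0.724 ± 0.192 with *HEK2*, 1.01 ± 0.21 with *SAN1*, 0.754 ± 0.087 with *ROF1* and 1.01 ± 0.08 with *TOS8* (SD, n = 4 each). The single libraries ranged between 0.524 and 1.38, and the strain means spanned a 1.58-fold range. The *SFL1* and *ROF1* strains, at the ends of the *FLO11* range, did not overlap in this proportion, with 0.996 to 1.38 in the *SFL1* libraries and 0.676 to 0.877 in the *ROF1* libraries. *ICR1* counts per 1000 *FLO11* counts were 22.8 ± 3.16 with *SFL1*, 5.07 ± 1.36 with *HEK2*, 2.02 ± 0.37 with *SAN1*, 1.44 ± 0.28 with *ROF1* and 2.43 ± 0.46 with *TOS8*, a 15.9-fold range. Per kb, the level of *FLO11* was 34.6 ± 4.66 times that of *ICR1* in the *SFL1* strain and 557 ± 98.1 times in the *ROF1* strain. Even where *FLO11* was lowest, it therefore had more counts per kb of annotated length than either ncRNA in every library. The libraries were made for mRNA, and how fully they hold the ncRNAs was not tested, nor was the length of *FLO11* in F45.

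**Figure D2:**
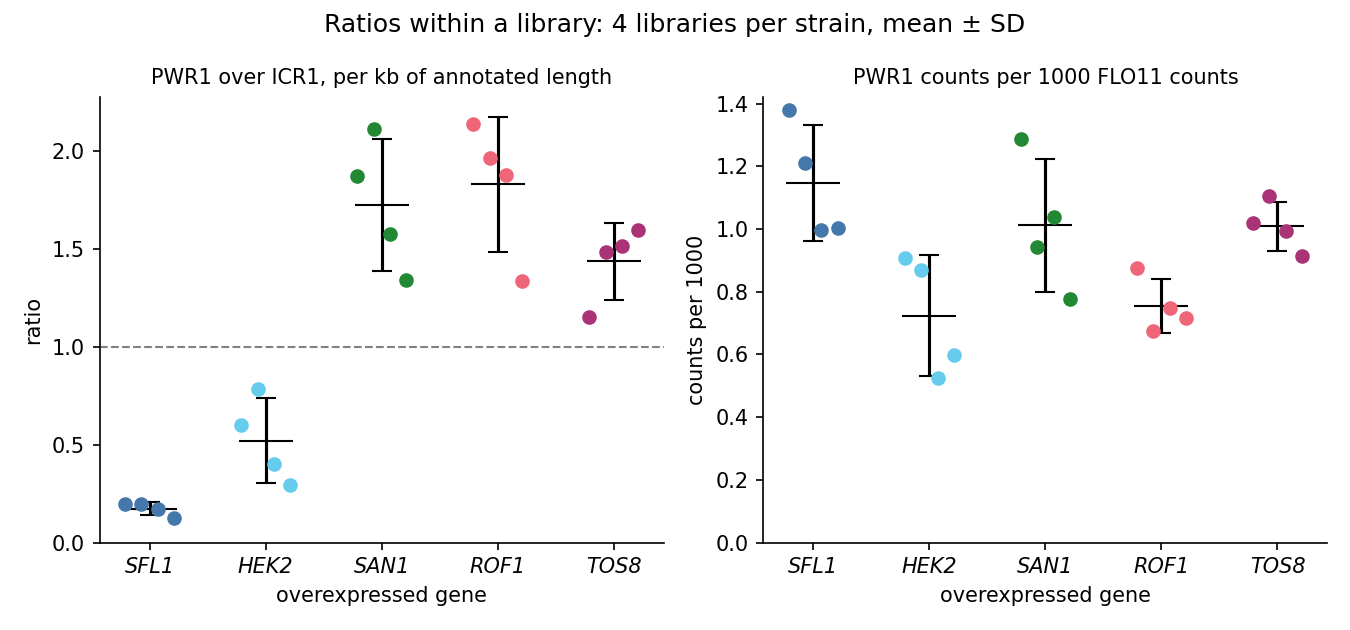
Left, the ratio of *PWR1* to *ICR1* per kb of annotated length in each library (points), with strain mean and SD (black) and a dashed line at 1; right, *PWR1* counts per 1000 *FLO11* counts. The *SFL1* and *HEK2* libraries all lie below 1 on the left and the other 12 above it, whereas the right panel spans 0.524 to 1.38 over all libraries.

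Across the 20 libraries, *PWR1* was the feature most like *FLO11* of the 7253 others that passed the filter on low counts, with a Pearson correlation of log2 CPM of 0.96. The next were YLL053C (0.94), the stable unannotated transcript SUT1576.1 on chromosome VII (0.93), *AQY2* (0.93) and *DDR48* (0.92), a stress-induced gene. *AQY2* (YLL052C) is an aquaporin gene numbered next to YLL053C on chromosome XII, so these 2 may not count as separate loci. The most opposite were *SFL1* (-0.93), which is on the plasmid of the strain with the least *FLO11*, *GID8* (-0.92), a ubiquitin ligase subunit gene, and *SNQ2* (-0.91), a multidrug transporter gene. The coefficient between *FLO11* and *ICR1* was -0.52, which ranked *ICR1* as 929 from the most opposite end of the 7253 features. For *YAP5* it was 0.10. The features most like *PWR1* were *FLO11* (0.96), SUT1576.1 (0.94) and *DDR48* (0.93), and those most like *ICR1* were *APE3* (0.91), a vacuolar aminopeptidase gene, *LDB17* (0.89), a gene of endocytosis, and *GSH1* (0.88), which encodes the first enzyme of glutathione synthesis. The points share their libraries and strains, and much of each coefficient is the difference between the strains, so that by rank (Spearman) the coefficients with *FLO11* were 0.92 for *PWR1*, 0.91 for SUT1576.1, 0.81 for YLL053C, 0.74 for *AQY2* and -0.75 for *SFL1*.

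**Figure D3:**
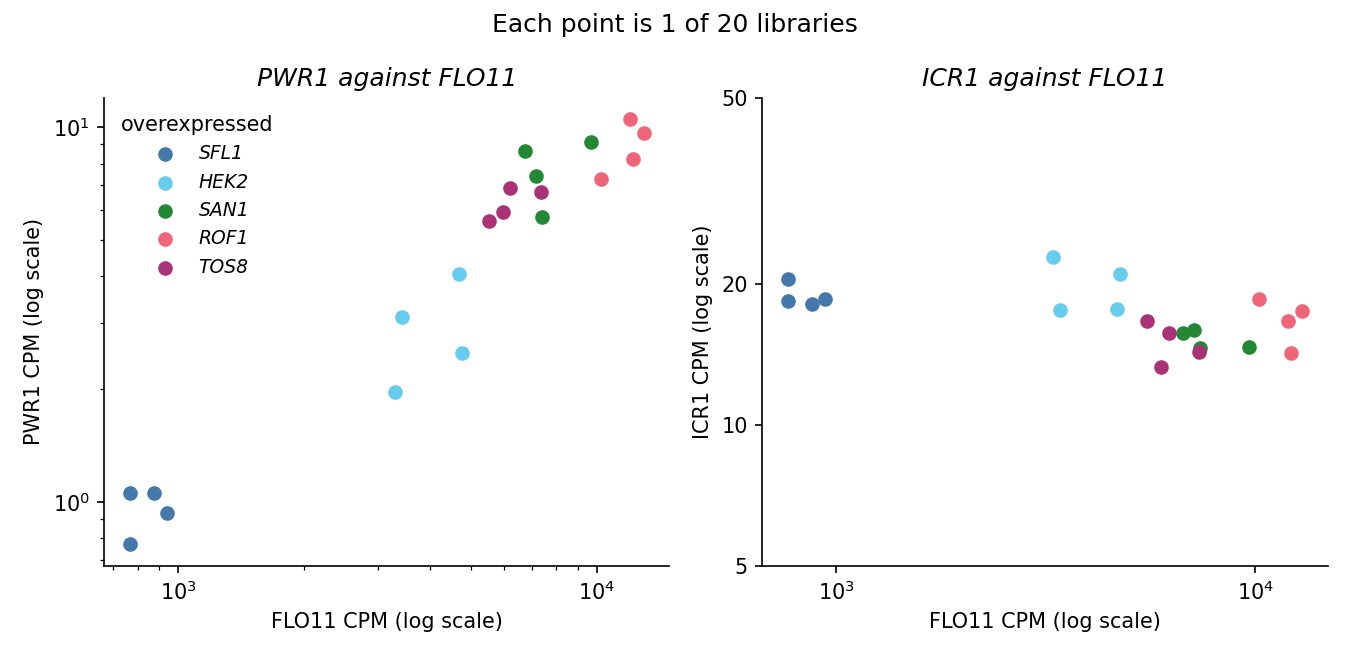
*PWR1* (left) and *ICR1* (right) against *FLO11*, in CPM on logarithmic axes, with each point 1 of the 20 libraries coloured by strain. *PWR1* follows *FLO11* across strains (Pearson 0.96 over log2 CPM), and *ICR1* stays between 13.3 and 22.8 CPM over the whole range of *FLO11*.

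Downstream of *FLO11*, *YAP5* was highest in the *TOS8* strain and much alike elsewhere. It had 26.3, 27.9, 34.4 and 32.5 CPM in the *TOS8* libraries, all above every library of the other strains, which lay between 17.9 and 25.5 CPM. The means were 30.3 CPM in the *TOS8* strain, 23.0 CPM in the *SAN1* strain, 22.5 CPM in the *SFL1* strain, 21.5 CPM in the *ROF1* strain and 20.98 CPM in the *HEK2* strain, and every pair of strains without *TOS8* overlapped. The log2 fold change against the mean of the other 4 strains was 0.46 ± 0.09 for *TOS8* and lay between -0.19 and -0.03 for the rest. For *TOS8* it stayed between 0.40 and 0.51 when any single library was left out, whereas for *SAN1* it was 0.03 without *SAN1* library 4. *YAP5* thus did not follow the order of *FLO11*, which was highest in the *ROF1* strain.

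YIR020C had 0 counts in all 20 libraries, which allows up to 3.69 counts per library (upper end of the exact 95% Poisson interval). This 0 says little about transcription there, because read pairs from *ICR1* over the same bases on the same strand fit either feature and were then counted for neither. All 20 ORFs of the table that lie within another feature of the same strand were at 0 in every library, against 45 of the other 6555 ORFs. Transcription of YIR020C itself cannot be told apart from this. On the strand opposite to *FLO11*, the transcript ST1682 overlaps 3497 of its bases and had 0.125 to 5.09 CPM. This was 0.0429 to 0.757 counts per 1000 *FLO11* counts, and ST1682 did not pass the filter on low counts. *ICR1* and *PWR1* also overlap, on opposite strands, and the counting used the strand of the kit, but how often a read pair was given the wrong strand in these libraries was not tested.

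Between pairs of strains, the 4 tested members were compared by whether the 4 and 4 library values overlapped, and each count is given beside the share of all 7254 tested features whose values did not overlap in that pair. Since the members were picked for such differences, nothing is read from these shares. In *SFL1* against *HEK2*, 2 members were apart (*FLO11* and *PWR1*; 21.5% of features). In *SFL1* against *SAN1*, 3 were apart (also *ICR1*; 25% of features), in *SFL1* against *ROF1* 2 (27.3%) and in *SFL1* against *TOS8* all 4 (50%). In *HEK2* against *SAN1*, 3 were apart (18.4%), in *HEK2* against *ROF1* 2 (23.3%) and in *HEK2* against *TOS8* all 4 (47.2%). In *SAN1* against *ROF1*, *FLO11* was the only member apart (7.64%), and in *SAN1* against *TOS8* it was *YAP5* (32.9%). In *ROF1* against *TOS8*, 3 were apart (*FLO11*, *PWR1* and *YAP5*; 35.8%). *FLO11* was apart in 9 of the 10 pairs, *PWR1* in 8, and *ICR1* and *YAP5* in 4 each. With TMM scaling these counts were the same except for *ICR1*, which was apart in 3 pairs, since *SFL1* and *TOS8* then overlapped.

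The features around the locus were tested, since they were chosen by position alone. Of 50 other features within 20 kb of the *FLO11* ORF, 26 passed the filter, and their log2 fold changes against the mean of the other 4 strains lay between -0.65 and 0.52 in all 5 strains, against -3.05 to 1.73 for *FLO11*. At a false discovery rate (FDR) below 0.01 in edgeR's quasi-likelihood test, 4 were called in the *SFL1* strain (2 higher and 2 lower, beside 13.9% and 4.96% of all features), 5 in the *HEK2* strain (3 higher and 2 lower, beside 9.62% and 13.8%) and 1 in the *SAN1* strain (higher, beside 1.39%, with 1.23% of features lower). In the *ROF1* strain, where *FLO11* was highest, edgeR's test called 0 of the 26 (beside 3.53% higher and 3.27% lower), with 6 at an unadjusted p under 0.05. DESeq2, the likelihood ratio test and the fit without *HEK2* library 4 each called 1 there. In the *TOS8* strain 3 were higher and 7 lower, beside 19.5% and 22.2% of all features.

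Nearest to the locus, *MRS1*, a splicing factor gene of mitochondria whose start lies just beyond that of *ICR1*, was lower in the *TOS8* strain (50.6 CPM, against a mean of 61.2 CPM in the other 4; log2 fold change -0.26 ± 0.06, adjusted p = 0.00098) and was not called in another strain. YIR018C-A, which lies between *YAP5* and *FLO11*, was lower in the *TOS8* strain (2.33 CPM, against 3.15 CPM; log2 fold change -0.46 ± 0.13, adjusted p = 0.0056), a call lost without *TOS8* library 2 (adjusted p = 0.054) and by DESeq2 (adjusted p = 0.011). Also in the *TOS8* strain, the proteasome transport gene *STS1* was higher (log2 fold change 0.39 ± 0.08, adjusted p = 0.00017), and *SEC11*, a signal peptidase gene (-0.28 ± 0.05, adjusted p = 9e-05), *EGH1*, a steryl glucosidase gene (-0.34 ± 0.07, adjusted p = 0.00028), and *DAL2* (-0.33 ± 0.06, adjusted p = 0.00014) and *DAL7* (-0.25 ± 0.06, adjusted p = 0.0015) of the allantoin pathway were lower. The allantoinase gene *DAL1* was lower in the *HEK2* strain (-0.33 ± 0.07, adjusted p = 0.00067). The other calls were each lost when some single library was left out, and the value without the library that mattered most follows each. In the *SFL1* strain these were *EGH1* (0.26 ± 0.07, adjusted p = 0.045 without *SFL1* library 4), *DAL7* (0.22 ± 0.06, 0.037 without *SFL1* library 2), *DAL1* (-0.31 ± 0.07, 0.011 without *SFL1* library 1) and the transcript 9F-202 (-0.65 ± 0.18, 0.047 without *SFL1* library 4). Both higher calls of this strain were also lost with TMM scaling (adjusted p = 0.036 for *EGH1* and 0.038 for *DAL7*) and by DESeq2 (0.035 and 0.03), and both lower calls were kept. In the *HEK2* strain they were YIR018C-A (0.42 ± 0.12, adjusted p = 0.084 without *HEK2* library 4), *EGH1* (0.26 ± 0.07, 0.041 without it), the phosphatase gene *YVH1* (-0.26 ± 0.07, 0.084 without it and 0.016 with TMM scaling) and *DAL2* (0.21 ± 0.06, 0.057 without *HEK2* library 1). *SEC11* in the *SAN1* strain (0.22 ± 0.05) had an adjusted p of 0.05 without *SAN1* library 4. In the *TOS8* strain, *YVH1* (0.28 ± 0.07), *DAL1* (0.27 ± 0.06) and *DCG1* (-0.42 ± 0.11) had 0.013 without *TOS8* library 4, and 0.01 and 0.023 without *TOS8* library 2. The count of calls was 0 in *SFL1* without its library 1, 1 in *HEK2* without its library 3 and 8 without its library 1.

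**Figure D4:**
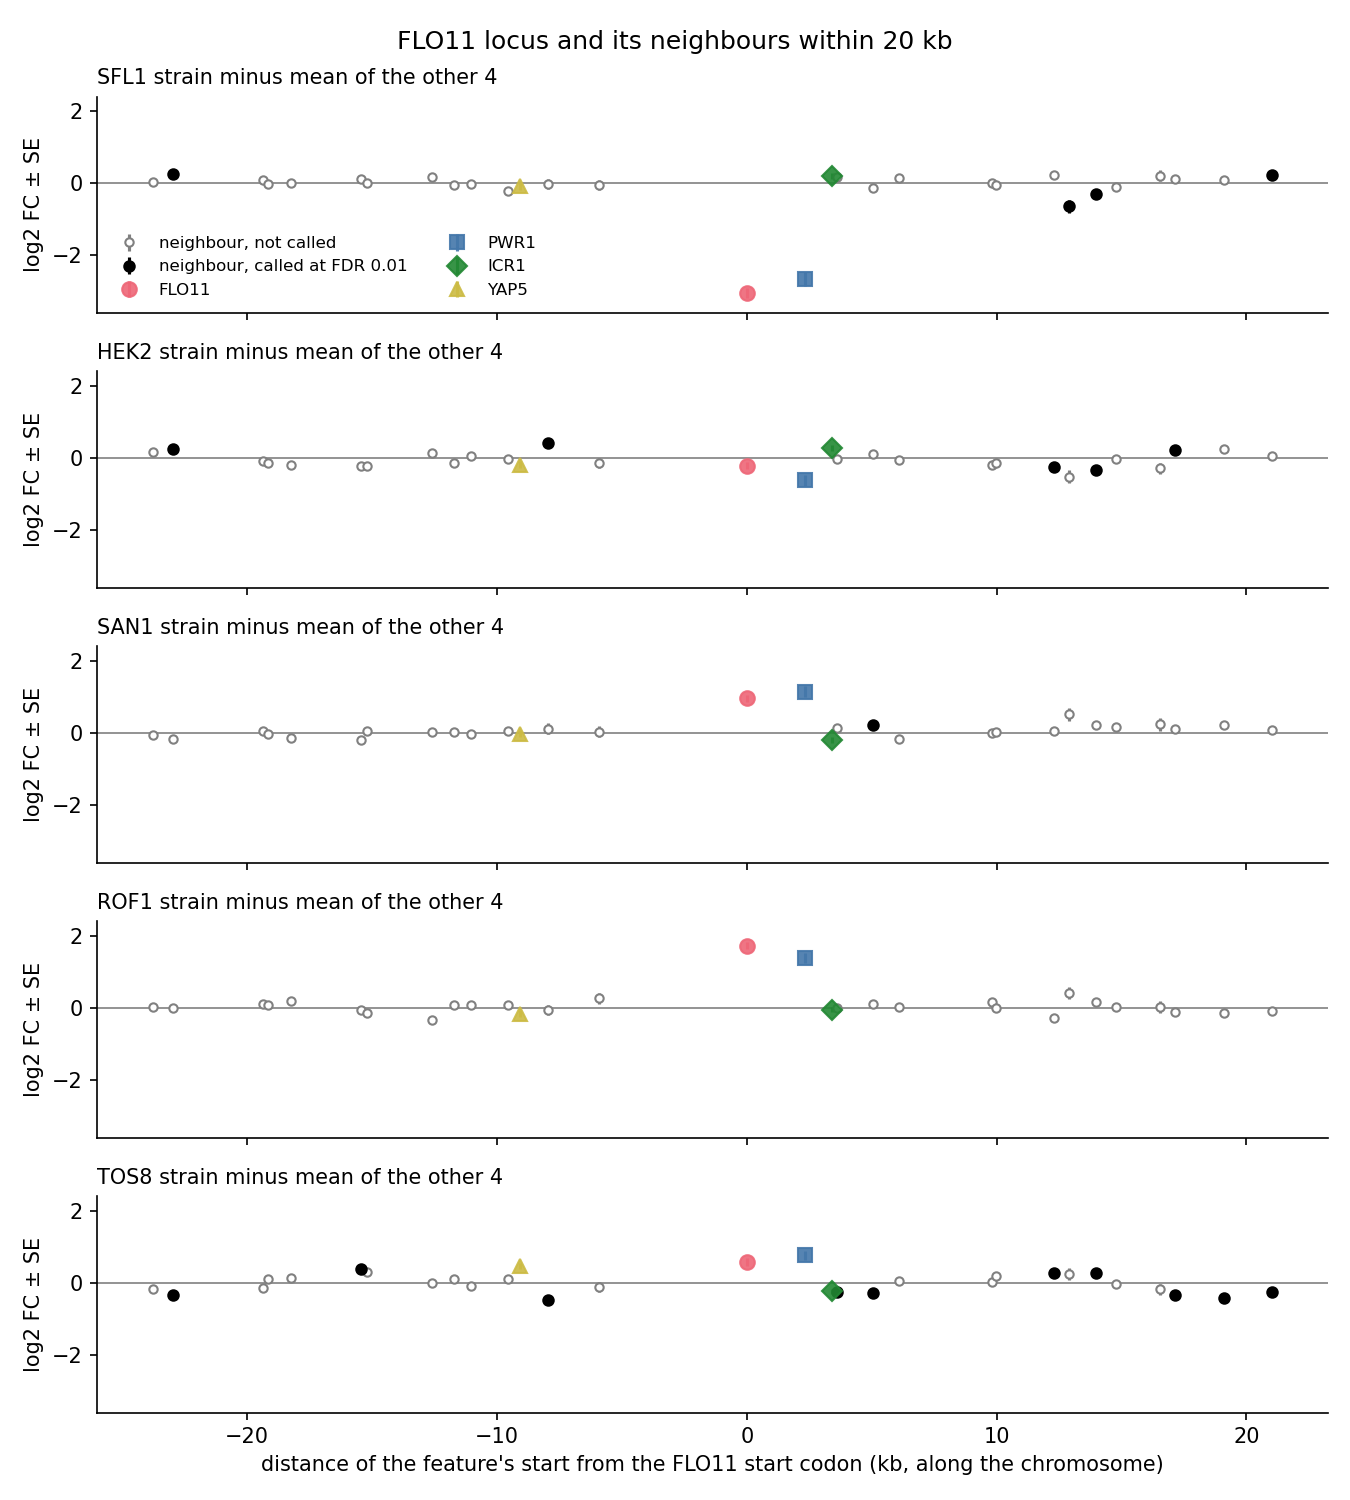
Log2 fold change (± SE) of the locus members (coloured) and of the 26 tested neighbours (filled where called at an FDR below 0.01) for each strain compared with the other 4, by the distance of each feature's start from the *FLO11* start codon in kb. *FLO11* and *PWR1* lie together and far from their neighbours in the *SFL1*, *SAN1* and *ROF1* strains, while *ICR1*, whose start is between that of *PWR1* and that of *MRS1*, stays between -0.23 and 0.27.

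Known regulators of *FLO11* and the other flocculin genes were described from 4 lists with 35 genes, all of which passed the filter. For these genes, rose and fell mean higher and lower than the mean of the other 4 strains, not than a control. Beside the list counts stand the shares of all features called, which were 13.9% higher and 4.96% lower in *SFL1*, 9.62% and 13.8% in *HEK2*, 1.39% and 1.23% in *SAN1*, 3.53% and 3.27% in *ROF1*, and 19.5% and 22.2% in *TOS8*. These shares depend on the scaling. In *SFL1*, 508 features were higher and 579 lower with TMM scaling, against 1007 and 360 here, and 6 list genes were called, against 10. Of the 10 transcriptional activators, 4 were lower and 1 higher in the *SFL1* strain (median log2 fold change -0.17, beside 0.06 over all features tested) and 1 lower and 1 higher in *HEK2* (-0.14, beside -0.04). *SAN1* had 1 lower (0.06, beside -0.0042), *ROF1* had 3 higher (0.21, beside 0.0017), and *TOS8* had 4 higher and 2 lower (0.04, beside -0.03), where the shares over all features are high as well. *TEC1*, the transcription factor of the filamentation pathway, fell in the *SFL1* strain (38.1 CPM, against a mean of 52.3 CPM in the other 4; log2 fold change -0.41 ± 0.07, adjusted p = 0.00016) and in the *HEK2* strain (34.02 CPM, against 53.3 CPM; -0.63 ± 0.07, adjusted p = 9.8e-07). Among these strains *TEC1* was higher with *ROF1* (61.9 CPM, against 46.4 CPM; 0.46 ± 0.07, adjusted p = 9.1e-05) and with *TOS8* (60.4 CPM, against 46.8 CPM; 0.42 ± 0.07, adjusted p = 1.8e-05). The paper reports *TEC1*, *FLO10* and *FLO11* as repressed, against the empty-vector control, in the *TOS8* profile and in a profile shared by most other strains. A higher level here therefore does not mean a rise over that control, which was not analysed. *PHD1*, an activator of pseudohyphal growth, fell in the *SFL1* strain (-0.68 ± 0.12, adjusted p = 0.00016) and rose in the *ROF1* strain (0.66 ± 0.11, adjusted p = 0.00025).

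The activator genes differed in their order over the strains. *MIT1*, a paralog of *ROF1*, rose in the *HEK2* strain (178.2 CPM, against 126.1 CPM; 0.51 ± 0.06, adjusted p = 6.6e-07) and fell in the *SAN1* strain (-0.34 ± 0.06, adjusted p = 0.001). *MGA1*, which encodes a protein similar to heat shock factor, rose in the *TOS8* strain (76.5 CPM, against 27.4 CPM; 1.52 ± 0.22, adjusted p = 6.7e-06), as did *MSS11* (0.33 ± 0.06, adjusted p = 0.00017) and, by less, *MSN1*. The strain means of *MGA1* and *MSS11* were lowest with *SFL1*, then *HEK2*, *SAN1* and *ROF1*, as for *FLO11*, but highest with *TOS8*. The other calls of this list were each lost when some single library was left out. The call of *MGA1* in the *SFL1* strain was lost in 8 of 20 such fits. *MGA1* (-0.996 ± 0.271) and *MSS11* (-0.28 ± 0.07) in the *SFL1* strain had adjusted p-values of 0.051 and 0.024 without *SFL1* library 3. *MIT1* was called higher in the *SFL1* strain, with an adjusted p of 0.011 without *SFL1* library 2 and 0.023 with TMM scaling. *STE12* in the *ROF1* strain (0.34 ± 0.07) had 0.016 without *ROF1* library 3, and in the *TOS8* strain (-0.26 ± 0.07) it had 0.026 without *TOS8* library 2. *MIT1*, called lower there, had 0.015 without *TOS8* library 1. *FLO8*, *ASH1* and *RME1* were called in no strain by edgeR's quasi-likelihood test, its likelihood ratio test or DESeq2.

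Of the 10 transcriptional repressors, 3 were higher in the *SFL1* strain, 2 higher and 2 lower in *HEK2*, 1 lower each in *SAN1* and *ROF1*, and 2 higher and 2 lower in *TOS8*, where these counts are near the shares over all features. The list's median log2 fold change was 0.02 for *SFL1*, -0.15 for *HEK2*, -0.09 for *SAN1*, -0.04 for *ROF1* and 0.08 for *TOS8*, beside the medians over all features given for the activators. *SFL1* itself is in this list and on the plasmid of its strain (242.2 CPM there, against a mean of 51.1 CPM in the other 4), so it was called in the opposite direction in each of the other 4 contrasts, whose means include the *SFL1* strain. It is the single repressor called with *SAN1* and with *ROF1*. *MOT3*, a zinc finger repressor gene, rose in the *TOS8* strain (66.3 CPM, against 33.0 CPM; log2 fold change 0.99 ± 0.18, adjusted p = 6.2e-05), where the corepressor gene *TUP1* fell (-0.31 ± 0.07, adjusted p = 0.0011). *TUP1* was higher in the *HEK2* strain (0.32 ± 0.07, adjusted p = 0.0012), with 0.012 without *HEK2* library 3, as was its partner *CYC8* (0.23 ± 0.06, adjusted p = 0.0033), with 0.02 without that library. *TUP1* (0.27 ± 0.07) in the *SFL1* strain had adjusted p-values of 0.029 with TMM scaling and 0.025 without *SFL1* library 4, and *NRG2* there (0.38 ± 0.10) had 0.014 with TMM scaling and 0.037 without *SFL1* library 1. *NRG2* in the *HEK2* strain (-0.42 ± 0.10) had 0.041 without *HEK2* library 4, and *NRG1* in the *TOS8* strain (0.30 ± 0.09) had 0.039 without *TOS8* library 3. *SOK2* and *HDA1* were called in no strain by edgeR's quasi-likelihood test, its likelihood ratio test or DESeq2. *DIG1* and *DIG2*, which encode inhibitors of Ste12 and Tec1, were not called by the quasi-likelihood test, but DESeq2 called *DIG1* in the *HEK2* strain (adjusted p = 0.00027, against 0.018) and *DIG2* in the *TOS8* strain (0.0022, against 0.013). The likelihood ratio test called *DIG2* in the *TOS8* strain (0.0054) and in the *HEK2* strain (0.0095, against 0.02).

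Rpd3L is a histone deacetylase complex that has been linked to the *FLO11* ncRNAs in another strain background. Of its 11 genes, 6 rose in the *TOS8* strain, 1 fell in the *HEK2* strain and 1 fell in the *SAN1* strain, beside 19.5% of all features higher in *TOS8*, 13.8% lower in *HEK2* and 1.23% lower in *SAN1*. In the *SFL1* and *ROF1* strains edgeR's test called 0, with 3 and 1 at an unadjusted p under 0.05, and DESeq2 called 1 in each. The medians were 0.04 for *SFL1*, -0.06 for *HEK2*, -0.15 for *SAN1*, 0.01 for *ROF1* and 0.18 for *TOS8*, beside 0.06, -0.04, -0.0042, 0.0017 and -0.03 over all features. In the *TOS8* strain the subunit gene *DEP1* (27.0 CPM, against 18.9 CPM; log2 fold change 0.52 ± 0.07, adjusted p = 1.9e-06) changed most, and *SAP30* (0.30 ± 0.06, adjusted p = 0.00047), *PHO23* (0.25 ± 0.06, adjusted p = 0.00076) and *CTI6* also rose. *RXT2* there, second to *DEP1* in size (0.31 ± 0.08), had an adjusted p of 0.018 without *TOS8* library 4, and *UME6* had 0.017 without it. *CTI6* fell in the *HEK2* strain (-0.28 ± 0.04, adjusted p = 6.8e-05), and *DEP1* in the *SAN1* strain (-0.37 ± 0.08) had 0.047 without *SAN1* library 1.

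Among the 4 other flocculin genes, *FLO10* was low in the *SFL1* and *HEK2* strains, as *FLO11* was, and about equally high with *ROF1* and *TOS8*. It fell in the *SFL1* strain (29.4 CPM, against 68.0 CPM; log2 fold change -1.11 ± 0.12, adjusted p = 1.1e-06) and in the *HEK2* strain (33.9 CPM, against 66.9 CPM; -0.88 ± 0.12, adjusted p = 1.4e-05). Among these strains it was higher with *ROF1* (86.4 CPM, against 53.8 CPM; 0.83 ± 0.11, adjusted p = 2.3e-05) and with *TOS8* (85.4 CPM, against 54.0 CPM; 0.81 ± 0.11, adjusted p = 1.9e-06). As for *TEC1*, this does not mean a rise over the empty-vector control. The subtelomeric *FLO1*, *FLO5* and *FLO9* went the other way in the *TOS8* strain, where all 3 fell (-0.64 ± 0.10, adjusted p = 9.2e-06; -0.49 ± 0.10, adjusted p = 0.00028; and -0.74 ± 0.12, adjusted p = 2e-05), and *FLO1* rose in the *HEK2* strain (0.42 ± 0.09, adjusted p = 0.00073). *FLO9* in the *SFL1* strain (0.43 ± 0.11) had an adjusted p of 0.015 with TMM scaling and 0.035 without *SFL1* library 3. In the *SAN1* strain edgeR's test and DESeq2 called 0 of the 4, with 1 at an unadjusted p under 0.05. *FLO1*, *FLO5* and *FLO9* are near copies of each other with few counts, and without a filter on mapping quality their levels are uncertain. The median log2 fold change of the 4 was 0.25 for *SFL1*, 0.21 for *HEK2*, 0.10 for *SAN1*, 0.04 for *ROF1* and -0.57 for *TOS8*.

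**Figure D5:**
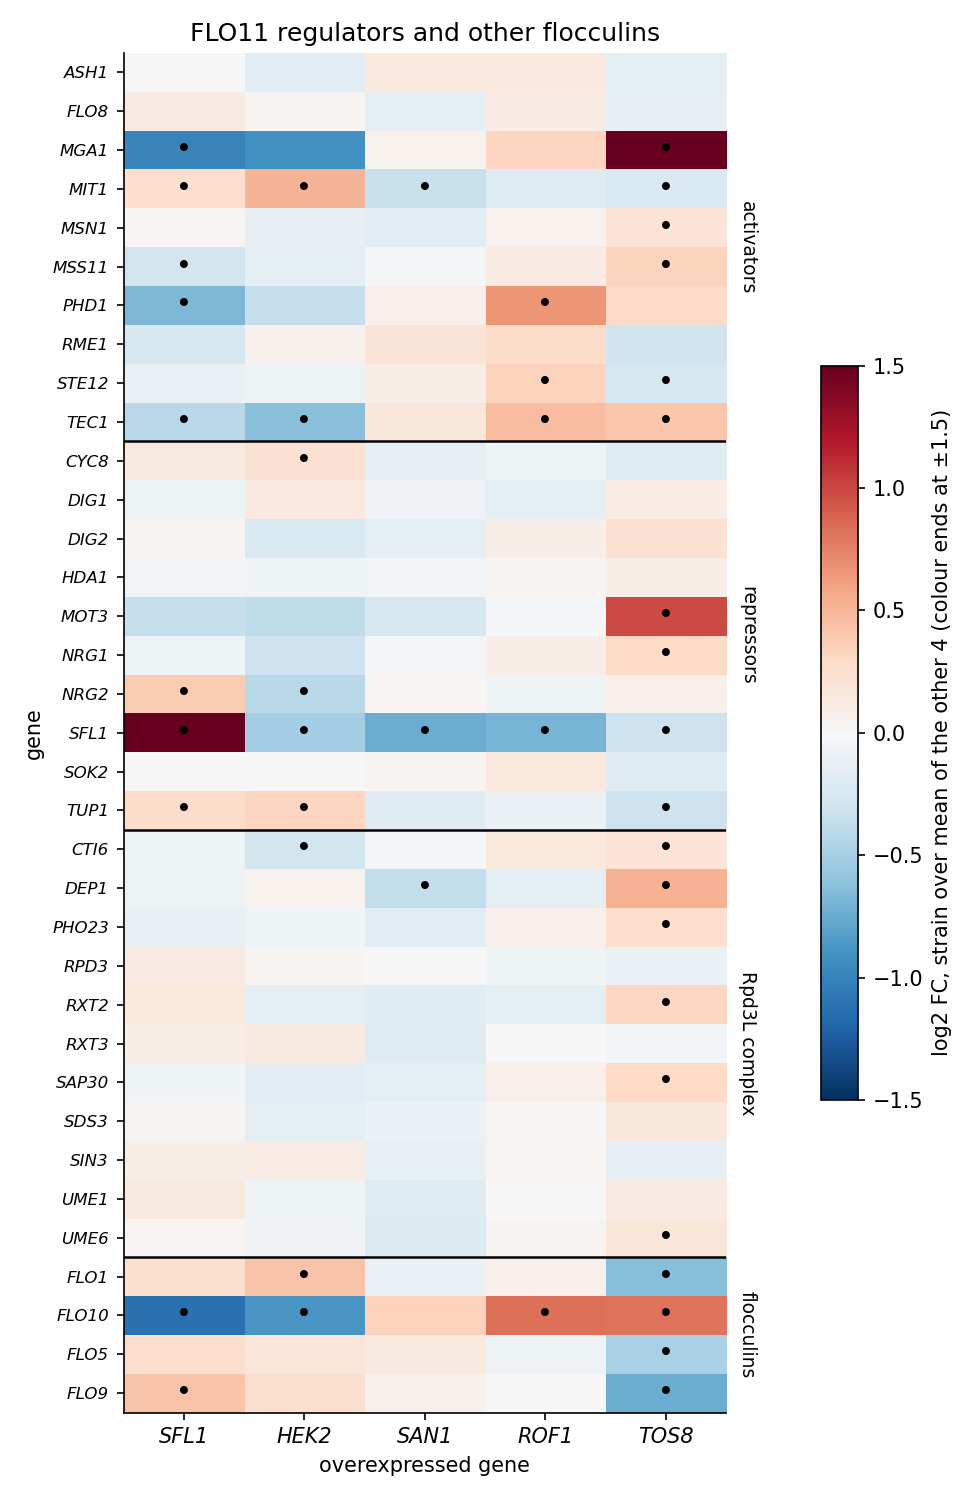
Log2 fold change of the 35 genes of the 4 lists (rows) for each strain compared with the other 4 (columns), with a dot where the FDR was below 0.01 in edgeR's quasi-likelihood test; red is higher and blue lower in the named strain, and the colours end at ±1.5, which *SFL1* in its own strain (2.26) and *MGA1* in the *TOS8* strain (1.52) exceed. *TEC1*, *PHD1*, *MGA1*, *MSS11* and *FLO10* are blue in the *SFL1* and *HEK2* columns and red in the *ROF1* and *TOS8* columns, though not each of these cells has a dot. The repressor genes *NRG1* and *HDA1* and the Rpd3L genes *CTI6*, *PHO23* and *SAP30* have the same signs. *MIT1*, *TUP1*, *CYC8*, *RPD3*, *RXT3* and *FLO5* have the opposite signs in these columns.

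For the binding sites of some of these regulators, the sequence between *FLO11* and *MRS1* was searched on both strands for the Tec1 site (CATTCC or CATTCT), for the Ste12 pheromone response element (TGAAACA) and for the Nrg1 core (CCCTC), none of which contains another. The 3618 bases before the *FLO11* start codon held 9 matches to the Tec1 site. Of the 6535 windows of the same length before ORFs, 98.6% held at least 1, with a median of 4, and 3.6% held at least 9. Those windows were cut whatever lay there and can run through neighbouring genes, whereas that of *FLO11* ends at *MRS1*. The 3618 bases also held 1 match to the Ste12 element, which 62.4% of the windows held. They held 3 to the Nrg1 core, of which 95.5% of the windows held at least 1 and 62.4% at least 3. The 250 bases before to 50 bases after the start codon held none for Tec1 or Ste12, against 28.2% and 7.1% of the windows of that size, and 1 Nrg1 core, against 23.9%. Below, 170 bases within *ICR1* (chrIX:394536-394705, minus strand) are shown because 3 of the 9 Tec1 matches lie there, in capitals, at positions -1009, -885 and -878 counted from the first base of the start codon. Such matches are letters only and say nothing of binding. They were read from the R64 genome, and the sequence of F45 was not searched.
FLO11 upstream stretch: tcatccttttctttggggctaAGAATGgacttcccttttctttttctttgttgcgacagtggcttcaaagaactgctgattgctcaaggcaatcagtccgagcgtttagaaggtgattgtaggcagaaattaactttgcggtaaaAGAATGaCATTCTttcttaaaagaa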

How the data were processed

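Per the paper's methods and the labels, the authors aligned paired reads of stranded mRNA libraries by Bowtie2 2.1.0 to the R64 genome of S288c, to which ncRNAs and F45 genes had been added. The deposited values are raw counts of read pairs per feature from featureCounts 1.4.0, taken by strand and with no filter on mapping quality. The stated settings do not ask for pairs that fit several features of a strand to be counted, so by the tool's default they were left out.

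CPM were scaled to the library total over all features. The 7254 features whose median over the 20 libraries reached 1 CPM entered a single edgeR fit (version 4.0.16, R 4.3.3) with a mean per strain and no TMM scaling. Each strain was set against the average of the other 4 by the quasi-likelihood test, with Benjamini-Hochberg adjustment over all features and an FDR threshold of 0.01. The SE of a log2 fold change was derived from this test, as its absolute value over the square root of the F statistic. Nothing says that the 4 samples of a strain were separate transformants, so p-values measure only the spread between these samples, which may be technical. Pairs of libraries within a strain differed by 2.26 to 13.9 times counting error in variance, so none was treated as a copy. Correlations used log2 CPM with a prior count of 2. The alternatives were TMM over all features, TMM in separate tables of ORFs and other features, DESeq2 (version 1.42.0), the likelihood ratio test, other filters, an FDR of 0.05, a replicate block and leaving out each library. The fit was also tested on simulated data.

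The members and the gene lists were chosen with earlier results of these data known. Named are the members, the plasmid genes, list genes and neighbours within 20 kb that were called in at least 1 strain (for lists, values for at most 4 per strain, by fold change), the 5 features most like and 3 most unlike *FLO11*, and the 3 most like *ICR1* and *PWR1*. Genes named as not passing the test in any strain, and ST1682, were added after their values were seen. Of the 5919 features matched to RefSeq by locus tag, 5887 had the same start and end. The ERCC spike-ins had 404 counts over all libraries and were not used further.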

Additional observations from a re-analysis of the deposited data

Results flagged for a closer look

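Among 40 groups of 4 libraries at the locus and its nearest neighbours, 2 held a library far from the other 3, a rate that chance alone gives at about 1 in 20 groups. YIR018C-A, between *YAP5* and *FLO11*, had 3.62 CPM in *SFL1* library 2, against 2.62 to 2.78 CPM in the other *SFL1* libraries. SUT1734.1 had 2.48 CPM in *ROF1* library 4, against 3.13 to 3.17 CPM in the other *ROF1* libraries.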

How the results depend on the processing

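All log2 fold changes of the 4 tested members that exceeded 2 SE kept their sign under every alternative that gave a value, and *PWR1* gave none under the filter of at least 10 CPM because its levels are lower. With TMM scaling the order of the strain means was the same for all 4 members. Counts of calls depended more on the settings. At an FDR of 0.05, features called were 2401 (*SFL1*), 2817 (*HEK2*), 564 (*SAN1*) and 1178 (*ROF1*), against 1367, 1702, 190 and 493 at 0.01. At that FDR the list genes called were 16 for *HEK2* and 5 for *SAN1*, against 9 and 3, and the neighbours called were 8 for *SFL1*, 11 for *HEK2* and 3 for *ROF1*, against 4, 5 and 0. List genes called for *SFL1* were 6 with TMM over all features and 6 in separate tables, against 10. DESeq2 called 397 features for *SAN1* and 799 for *ROF1*, and the likelihood ratio test 344 for *SAN1*. With no filter, 2 neighbours were called for *HEK2*. For *ROF1*, 1 neighbour was called with DESeq2 and 1 with the likelihood ratio test.

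When each library was left out in turn, features called ranged between 767 (without *SFL1* library 4) and 1560 for *SFL1*, 121 (without *SAN1* library 4) and 220 for *SAN1*, and 160 (without *ROF1* library 2) and 679 for *ROF1*. List genes called for *SFL1* ranged between 5 (without *SFL1* library 3) and 10. Neighbours called ranged between 0 and 4 for *SFL1*, 1 and 8 for *HEK2*, 0 and 1 for *SAN1*, and 0 and 1 for *ROF1*. The share of calls that were higher was 49.3% and 49% for *SFL1* in separate tables and with DESeq2, 56.2% and 55.5% for *HEK2*, and 64.2% for *SAN1* in separate tables. The causes were not tested.

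The replicate numbers are shared across strains, but the libraries were not taken as paired. The correlation of same-numbered deviations lay between -0.07 and 0.21 over the 10 pairs of strains. It exceeded 0.1 in 4, none of them with *TOS8*, and was positive in every pair without *TOS8* (0.04 to 0.21). Sharing among the strains other than *TOS8* is thus not excluded. With the number as a replicate block, *FLO11* in *SFL1* was at -3.05, 1 neighbour was called for *ROF1*, and no other count moved by over 1.5 times. Features called rose with it in every strain, as from 190 to 243 for *SAN1* and from 3028 to 3123 for *TOS8*. Depth limits *PWR1* most, with 13 to 205 counts per library.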

Other observations

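Within strains, *PWR1* was lowest in the library numbered 4 in the *SFL1*, *HEK2*, *SAN1* and *ROF1* strains and not in the *TOS8* strain. In the same 4 strains *YAP5* was lower in libraries 3 and 4 than in libraries 1 and 2, whereas in the *TOS8* strain it was higher. In the *HEK2* strain, libraries 3 and 4 had more *ICR1* (21.1 and 22.8 CPM, against 17.6 and 17.7 CPM in libraries 1 and 2) and less *PWR1* (2.49 and 1.97 CPM, against 3.11 and 4.07 CPM), whereas *FLO11* was at 4752 and 3299 CPM in libraries 3 and 4, against 3426 and 4688 CPM in libraries 1 and 2. These patterns were noticed in the values and were not tested.

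The antisense transcript ST1682 had 5.09 CPM in *SAN1* library 1, against 1.47, 0.727 and 1.49 CPM in the other *SAN1* libraries and 0.125 to 1.44 CPM in the libraries of the other strains. *FLO11* was at 6728 CPM in that library, against 7131 to 9650 CPM in the other *SAN1* libraries. Over the strains, the mean of ST1682 was lowest with *SFL1* (0.312 CPM), as was that of *FLO11*. A relation between ST1682 and *FLO11* was not tested.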
